A study of Mus musculus with 6 samples.

Results

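In 4 libraries of CD11b+ spinal cord cells from mice with experimental autoimmune encephalomyelitis (EAE), 669 cells carried transcripts of both resident microglia and infiltrating monocytes. They were picked by 2 sums of unique molecular identifiers (UMIs, counts of captured transcripts) per cell. M is the sum over Tmem119, P2ry12, Siglech, Sparc and Olfml3, which mark microglia. Y is the sum over Ccr2, Ly6c2, Fn1, F10, Tgfbi, S100a4 and Plac8, which monocytes and their progeny express. A dual-signature cell had M of at least 5, Y of at least 10 and M no more than 2 times Y. This took 669 of 7121 EAE cells (9.39%), out of 9078 cells in all 6 libraries. They were set against microglial cells (M of at least 5 and above 2 times Y, 773 cells) and monocytic cells (Y of at least 10 and M of at most 2, 5106 cells) of the same libraries. The other 573 EAE cells met none of these rules.

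Microglia settle in the central nervous system before birth and maintain themselves by local division, with identity genes such as Tmem119, P2ry12 and Sall1. During EAE, an autoimmune model of multiple sclerosis, monocytes enter the spinal cord from blood and become macrophages that present antigen and produce cytokines and reactive oxygen species (ROS). Cst7, Cd36, Cxcl13 and Top2a had been proposed, with earlier results of these same data known, as genes that mark the dual-signature cells.

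All mice were C57BL/6, and the labels give their age as 10 weeks. EAE ROS+ and EAE ROS- cells came from spinal cords at disease onset after immunisation with a myelin peptide, and healthy ROS- cells gave the background, with 2 libraries in each of these 3 groups. All cells, healthy ones included, were stained with the ROS-sensitive dye DCFDA at 10 µM and sorted on CD11b, an integrin of myeloid cells, so other cell types should be few. Nothing in the labels ties a library to its own animal, so p-values measure only the spread between libraries, which may be technical.

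The EAE libraries held 1529 to 2233 cells and 11905419 to 23407825 UMIs, and the healthy libraries 202 and 1755 cells with 915197 and 4431954 UMIs. Between 0 and 7 cell barcodes were shared by any pair of the 6 libraries, and no dual-signature barcode was a dual-signature barcode in another library, although 7 of them also occurred in another library in some class. The doublet caller Scrublet marked 7 EAE cells (0.0983%), 3 of them dual-signature, too few for its calls to be used, and none was removed. Its median score was 0.0952 and 0.0938 in ROS+ and 0.120 and 0.120 in ROS- dual-signature cells, above microglial (0.0187 to 0.0541) and monocytic cells (0.0400 to 0.0806) in all 4 libraries. Whether each dual-signature barcode held 1 cell was not tested.

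Dual-signature cells appeared in every EAE library and in neither healthy library. They made up 10.7% and 2.73% of the EAE ROS+ libraries, with 186 and 61 cells, and the 95% exact binomial (Clopper-Pearson) intervals ran from 9.25% to 12.2% and from 2.10% to 3.50%. In the EAE ROS- libraries they made up 17.0% and 9.68%, with 274 and 148 cells and intervals from 15.2% to 18.9% and from 8.24% to 11.3%. The libraries of a gate differed from each other, and the gates overlapped, since ROS+ replicate 1 stood above ROS- replicate 2. The mean share was 6.70% ± 5.61 in ROS+ and 13.3% ± 5.16 in ROS- libraries (SD, n = 2 each), a difference of -6.63 percentage points with p = 0.667 in a two-sided exact permutation test, whose smallest possible p is 0.333 here. In the healthy libraries, 0 of 1755 cells and 0 of 202 cells qualified, which allows shares of up to 0.210% and 1.81% (exact interval; intervals cover counting error only). Only 1 of 1957 healthy cells reached Y of 10, and the highest Y there was 15. The healthy background was not matched for depth. Healthy microglial cells had median depths of 2195 and 3625 UMIs, and 1326 of 1729 and 54 of 197 held under 3000 UMIs. The shallowest dual-signature cell had 3190 UMIs.

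**Figure D1:**
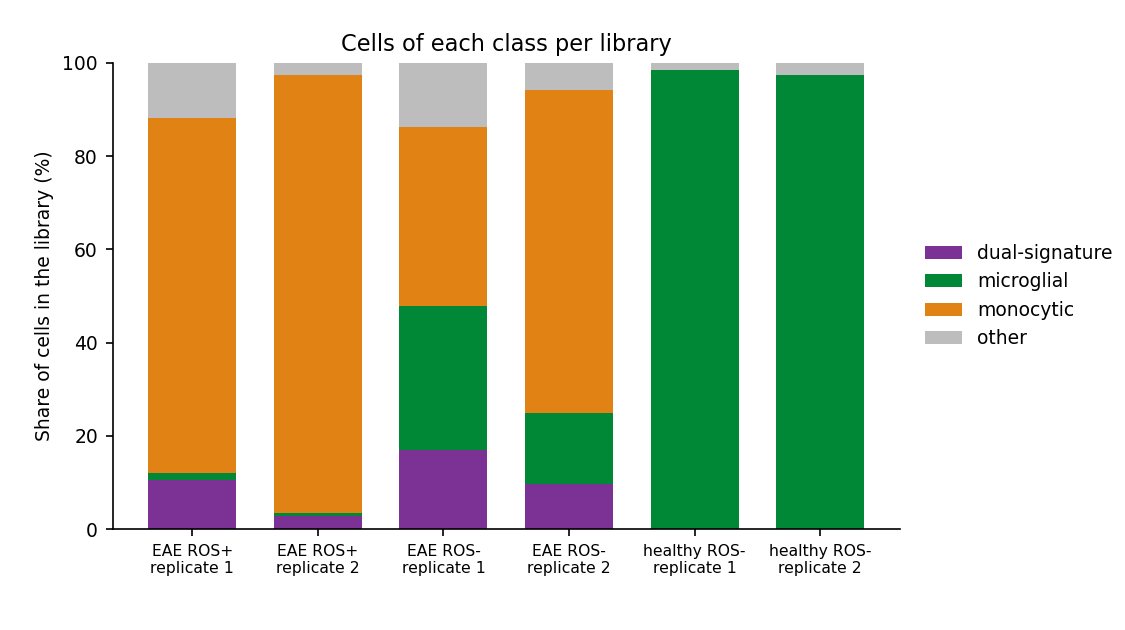
Share of cells in each class (%, vertical axis) for the 6 libraries (horizontal axis), as stacked bars with dual-signature cells at the base. Dual-signature cells take 10.7% and 2.73% of the ROS+ libraries and 17.0% and 9.68% of the ROS- libraries, and the healthy libraries hold none.

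The cells around them differed by gate. Microglial cells numbered 26 and 15 in the ROS+ libraries, against 499 and 233 in the ROS- libraries. There were thus 7.15 and 4.07 dual-signature cells per microglial cell in ROS+ libraries, and 0.549 and 0.635 in ROS- libraries. The gates did not overlap, but the ROS+ ratios rest on 26 and 15 microglial cells. With 2 libraries per gate an exact permutation test could not give a p under 0.333, and none was run on these ratios. Per monocytic cell, of which there were 1329 and 2099 in ROS+ and 620 and 1058 in ROS- libraries, dual-signature cells numbered 0.140 and 0.0291 in ROS+ and 0.442 and 0.140 in ROS- libraries.

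A dual-signature barcode held more RNA than a barcode of either other class. In ROS+ replicate 1 its median was 26470.5 UMIs, against 9178 in microglial and 8848 in monocytic cells. In ROS+ replicate 2 the medians were 13360 in dual-signature, 6120 in microglial and 5396 in monocytic cells. In ROS- replicate 1 they were 16130 in dual-signature, 6626 in microglial and 7259.5 in monocytic cells. The ROS- replicate 2 medians were 15749 in dual-signature, 4757 in microglial and 6409.5 in monocytic cells. The dual-signature median was 2.18 to 3.31 times that of microglial and 2.22 to 2.99 times that of monocytic cells. In all 4 libraries it exceeded the sum of both other medians, which was 18026 and 11516 in ROS+ and 13885.5 and 11166.5 in ROS- libraries. Leaving out the rule genes' own UMIs hardly moved the dual-signature medians, to 26363.5 and 13241 in ROS+ and 16063.5 and 15680 in ROS- libraries. Dual-signature cells also showed more genes per cell, with medians of 4571.5 and 3408 in ROS+ and 3720 and 3694.5 in ROS- libraries, against 1844 to 2658.5 in microglial and 1825 to 2367 in monocytic cells. The rule asks for at least 15 UMIs from 12 genes and so favours deep barcodes; these depths are a description with no test. Counting only barcodes with 5000 to 20000 UMIs, the dual-signature share was 4.91% and 2.73% in ROS+ and 13.3% and 8.68% in ROS- libraries; depth still varied within these limits, and its part in the class was not tested.

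**Figure D2:**
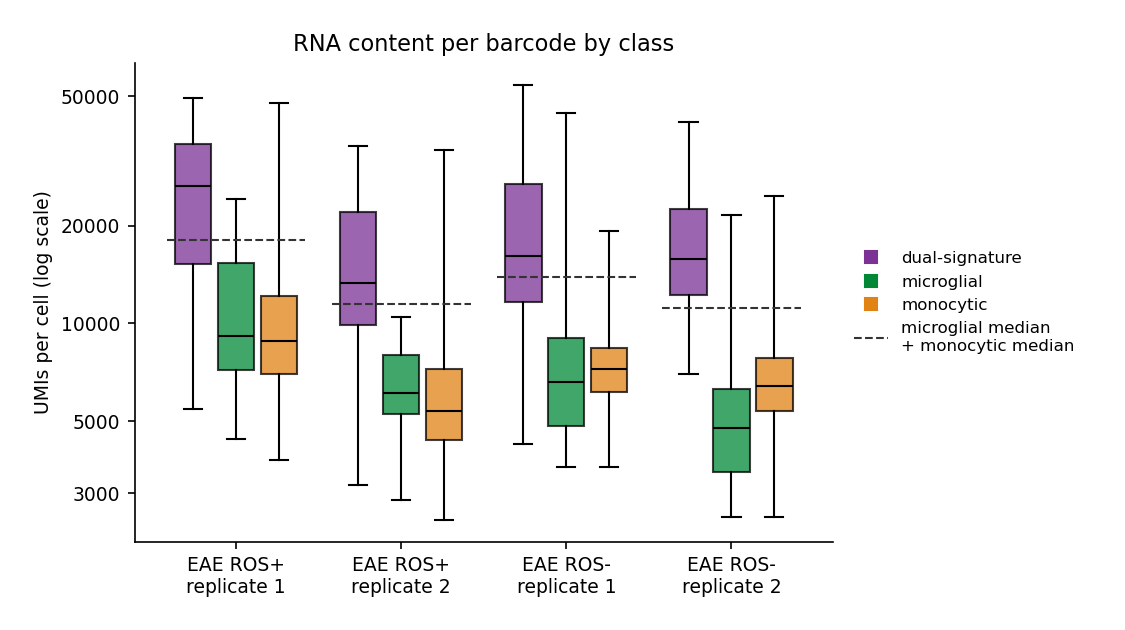
UMIs per cell (log axis) for dual-signature, microglial and monocytic cells of the 4 EAE libraries; boxes show median and quartiles, whiskers the lowest and highest cell, and dashed lines the sum of the microglial and monocytic medians. The dual-signature median lies above the dashed line in each library, for example 26470.5 against 18026 in ROS+ replicate 1.

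The genes of the rule give the make-up of these barcodes, as a description of how they were chosen. The median dual-signature cell had M of 7 and 10 in the ROS+ libraries and 25.5 and 23.5 in the ROS- libraries, with Y of 110.5 and 87 in ROS+ and 51 and 66 in ROS- libraries. Sparc, a matricellular protein, gave the largest part of M, at 5.29 and 5.28 UMIs per cell in ROS+ and 15.96 and 10.1 in ROS- libraries. Tgfbi, a matrix adhesion protein, and Plac8 together gave more of Y than its other 5 genes. In UMIs per cell, M averaged 13.96 and 14.5 in ROS+ and 35.2 and 25.9 in ROS- dual-signature cells, against 41.8 and 20.9 in ROS+ and 34.02 and 25.9 in ROS- microglial cells. In the ROS- libraries a dual-signature barcode therefore carried about as many microglial UMIs as a microglial barcode, and in the ROS+ libraries fewer. Y averaged 121 and 93.9 per cell in ROS+ and 61.1 and 78.3 in ROS- dual-signature cells, against 78.5 and 76.3 in ROS+ and 50.0 and 64.4 in ROS- monocytic cells, and was higher in all 4 libraries.

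Many members in the ROS+ libraries lay near the lower limit of M. The share with M of 5 to 9 was 55.4% and 44.3% in ROS+, against 22.6% and 11.5% in ROS- libraries. Exactly at M of 5 there were 51 and 12 members in ROS+ and 28 and 2 in ROS- libraries. Just outside, 76 and 13 cells in ROS+ and 51 and 9 in ROS- libraries had enough Y but M of 4. These neighbours had median depths of 17868 and 12982 UMIs in ROS+ and 8827 and 13292 in ROS- libraries. Members at M of 5 had 20004 and 10181.5 in ROS+ and 7446.5 and 11659.5 in ROS- libraries. Outside ROS- replicate 1, high depth was thus not limited to cells inside the rule. In ROS- replicate 1 both medians lay nearer to the monocytic median of 7259.5 UMIs than to the dual-signature median of 16130. At the limits doubled to M of 10 and Y of 20, the class held 4.53% and 1.43% of ROS+ and 12.5% and 8.37% of ROS- cells, and the gates then no longer overlapped (exact permutation p = 0.333, the smallest possible).

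The balance of M to Y varied from cell to cell and by library. M made up under 0.2 of M plus Y in 80.6% and 67.2% of members in ROS+, against 24.1% and 33.8% in ROS- libraries. It made up over 0.4 in 5.38% and 11.5% of members in ROS+ and in 40.5% and 18.2% in ROS- libraries. The distribution was broad in ROS- libraries and had no gap between a low and a high end.

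**Figure D3:**
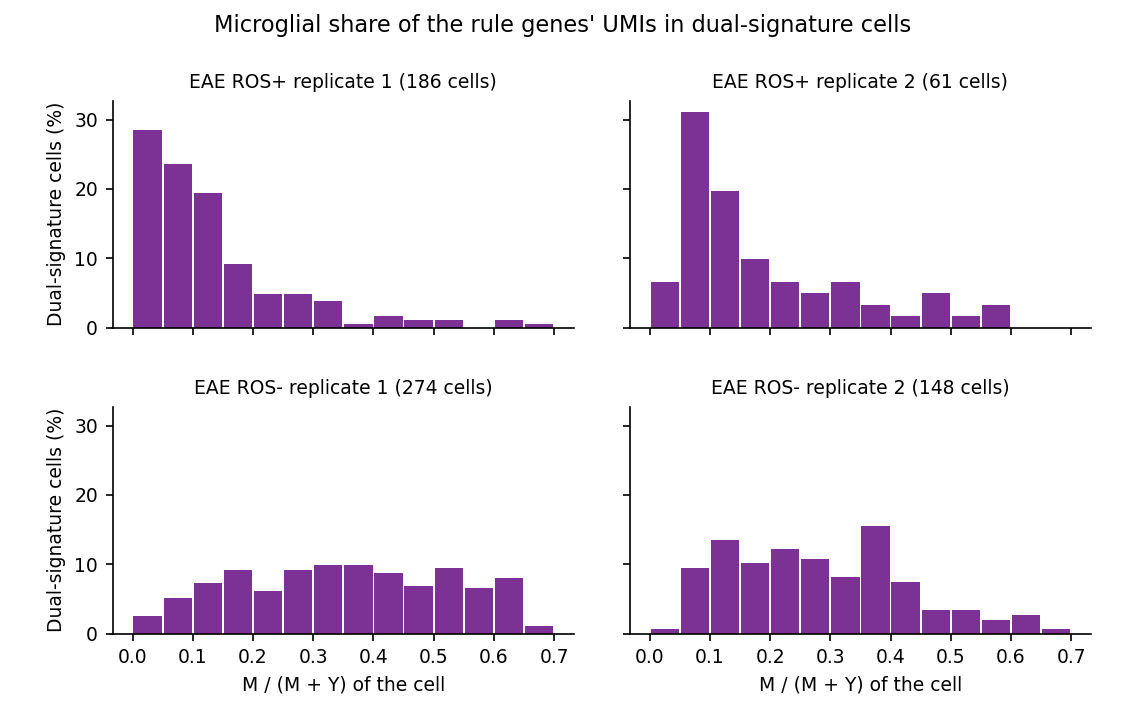
Percent of dual-signature cells (vertical axis) by the microglial share of their rule UMIs, M over M plus Y (horizontal axis), for each EAE library. Most ROS+ cells lie under 0.2 (80.6% and 67.2%), while ROS- cells spread over the whole allowed range.

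Genes outside the rule followed this balance. The bins were cut on the rule genes' own UMIs, so genes that vary with them carry the cut, and the levels are a description. The summed level of 20 microglial identity genes, in CPM (counts scaled to a fixed total per library and class), was 3111 and 3506 in members under 0.2 and 9932 and 7456 in members over 0.4 of the ROS+ libraries, and 4157 and 4441 against 11105 and 9048 in the ROS- libraries. The 20 monocyte genes ran the other way, at 20664 and 20488 CPM under 0.2 and 15398 and 11669 over 0.4 in ROS+, and 16862 and 14759 against 9285 and 9458 in ROS- libraries. Both patterns held in all 4 libraries. RNA content was lower in members over 0.4 in 3 of 4 libraries. Their median was 16556.5 UMIs in ROS+ replicate 1, 11578 in ROS+ replicate 2 and 12510 in ROS- replicate 2, against 30006, 14427 and 18304 in members under 0.2 of the same libraries. In ROS- replicate 1 it was 19937 in members over 0.4, above the 12505 in members under 0.2.

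The comparisons between classes below rest on UMI counts summed per library and class, fitted with edgeR over 11118 genes with the library as a block. Levels are CPM over totals scaled by the trimmed mean of M values (TMM), and a gene counted as higher or lower at a Benjamini-Hochberg adjusted p under 0.05. The classes were cut from RNA counts of these same cells, so every gene that varies with the 12 rule genes carries the cut. Counts and folds are therefore given as descriptions of the classes, with no p-value.

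The 4 proposed marking genes stood far above monocytic cells, and none was called higher than in microglial cells. Cst7, a cystatin that inhibits lysosomal proteases and rises in microglia responding to damage, had 109.9 and 94.5 CPM in ROS+ and 347 and 184 CPM in ROS- dual-signature cells. Its level was 709.9 and 152 CPM in ROS+ and 645 and 249.7 CPM in ROS- microglial cells, and 25.4 and 10.8 CPM in ROS+ and 69.2 and 24.0 CPM in ROS- monocytic cells. Within each library the order was the same, with dual-signature cells between the others. The log2 fold change was -1.21 ± 0.25 (SE) over microglial and 2.62 ± 0.25 over monocytic cells.

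Cd36, a scavenger receptor that takes up oxidised lipids, had 39.5 and 80.998 CPM in ROS+ and 114 and 101 CPM in ROS- dual-signature cells. Microglial cells had 299 and 184 CPM in ROS+ and 251 and 189 CPM in ROS- libraries, and monocytic cells 3.68 to 12.7 CPM, so the ranges of the 3 classes did not overlap (log2 -1.43 ± 0.24 and 3.62 ± 0.26 over microglial and over monocytic cells). Top2a, a topoisomerase of dividing cells, had 34.4 and 60.2 CPM in ROS+ and 37.2 and 56.8 CPM in ROS- dual-signature cells. Microglial cells had 262 and 152 CPM of it in ROS+ and 75.5 and 149.8 CPM in ROS- libraries, and monocytic cells 3.67 to 5.07 CPM, again with no overlap (log2 -1.61 ± 0.23 and 3.51 ± 0.26).

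Cxcl13, a chemokine that attracts B cells, varied most between libraries. It had 24.5 and 2.08 CPM in ROS+ and 108 and 30.2 CPM in ROS- dual-signature cells. Microglial cells had 13.3 and 88.0 CPM in ROS+ and 241 and 15.95 CPM in ROS- libraries, and monocytic cells 0.245 to 7.84 CPM. It was higher than in microglial cells in 2 of 4 libraries (log2 -0.64 ± 0.34, not called) and higher than in monocytic cells in all 4 (4.33 ± 0.40). Without ROS- replicate 1 the log2 fold change over microglial cells was 0.088, and without ROS- replicate 2 it was -1.08 and called.

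**Figure D4:**
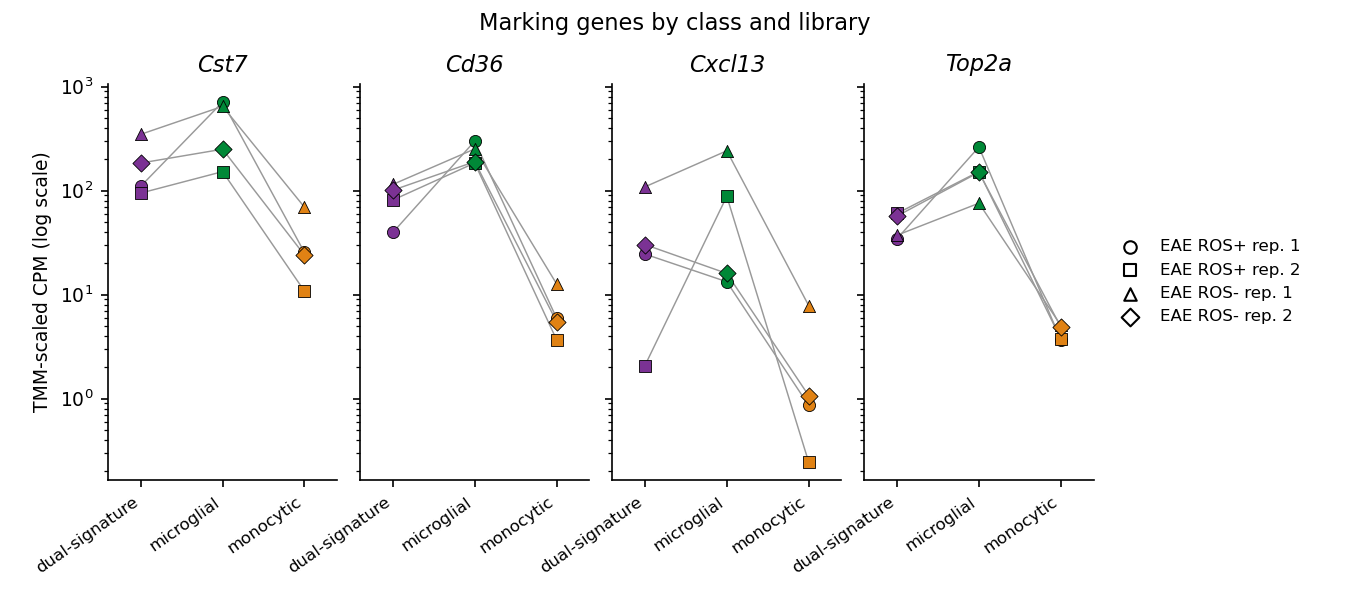
TMM-scaled CPM (log axis) of Cst7, Cd36, Cxcl13 and Top2a in the 3 classes; each point is the summed cells of 1 EAE library and grey lines join the classes of a library. Cst7, Cd36 and Top2a lie between microglial and monocytic cells in all 4 libraries, and Cxcl13 exceeds microglial cells in 2.

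Detection per cell showed the same order for Cst7 once depth was evened. A Cst7 UMI was found in 55.4% and 55.7% of ROS+ and 87.2% and 76.4% of ROS- dual-signature cells. The shares in microglial cells were 92.3% and 66.7% in ROS+ and 88.6% and 62.7% in ROS- libraries, so dual-signature cells were below them in 3 libraries and above in ROS- replicate 2, with deeper barcodes in all 4. After thinning each cell to 3000 UMIs, which left out no dual-signature cell, up to 29 microglial and up to 79 monocytic cells per library, Cst7 was seen in 23.7% and 26.2% of ROS+ and 53.3% and 38.5% of ROS- dual-signature cells. The thinned shares were 80.8% and 50.0% in ROS+ and 72.1% and 50.0% in ROS- microglial cells, and 3.99% and 2.28% in ROS+ and 17.7% and 4.50% in ROS- monocytic cells. In microglial cells of the healthy libraries, on plain totals, Cst7 had 11.6 and 50.6 CPM, Cd36 0.909 and 0 CPM, Cxcl13 0 and 1.10 CPM and Top2a 10.2 and 26.4 CPM. The EAE dual-signature cells had on that scale 95.5 to 354 CPM of Cst7, 35.9 to 116.6 CPM of Cd36, 2.10 to 110.5 CPM of Cxcl13 and 31.3 to 60.9 CPM of Top2a, above the healthy values for each gene. For Cxcl13 the lowest value came from 3.28% of 61 cells in ROS+ replicate 2, and the healthy 1.10 CPM from 1 UMI. Those 2 values are near the floor and cannot be told apart.

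Over all genes, 1606 (14.4%) were higher and 1249 (11.2%) lower in dual-signature than in microglial cells, and 1428 (12.8%) higher and 1384 (12.4%) lower than in monocytic cells, 25.7% and 25.3% in either direction. These counts depended on the libraries: without ROS- replicate 2 there were 700 lower than in microglial, and 903 higher and 703 lower than in monocytic cells. Without ROS- replicate 1 there were 923 higher and 763 lower than in monocytic cells.

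Microglial identity genes and monocyte genes were both present at intermediate levels. Of 20 microglial identity genes, 19 were lower than in microglial cells and 19 higher than in monocytic cells, with median log2 fold changes of -1.40 and 2.36. Sall1, a transcription factor that holds microglial identity, had 10.2 and 15.6 CPM in ROS+ and 37.2 and 31.3 CPM in ROS- dual-signature cells. Sall1 was at 63.0 and 48.0 CPM in ROS+ and 56.5 and 56.9 CPM in ROS- microglial cells, and at 0.312 to 3.00 CPM in monocytic cells. Cd81, a tetraspanin, Slc2a5, a fructose transporter, and Crybb1 followed the same order in all 4 libraries. In UMIs per barcode the identity list summed to 94.3 and 69.7 in ROS+ and 170.4 and 117 in ROS- dual-signature cells, against 176 and 79.8 in ROS+ and 146 and 97.1 in ROS- microglial cells. Per barcode, then, dual-signature cells of the ROS- libraries carried more identity transcripts than microglial cells, and those of the ROS+ libraries fewer.

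Of 20 monocyte genes, 19 were higher than in microglial cells and 18 lower than in monocytic cells, with medians of 2.43 and -0.82, beside medians of all genes of -0.00 and -0.01. S100a6, a calcium-binding protein, had 644 and 808 CPM in ROS+ and 355 and 558 CPM in ROS- dual-signature cells. Its level was 89.6 and 48.0 CPM in ROS+ and 65.9 and 59.6 CPM in ROS- microglial cells, and 916 and 1379.8 CPM in ROS+ and 910.3 and 1193 CPM in ROS- monocytic cells. Ahnak, a large scaffold protein, had log2 fold changes of 2.89 ± 0.21 over microglial and -0.56 ± 0.12 over monocytic cells. Per barcode the monocyte list summed to 518 and 306 UMIs in ROS+ and 231 and 232 in ROS- dual-signature cells, against 286 and 182 in ROS+ and 139 and 134 in ROS- monocytic cells, and was higher in all 4 libraries.

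**Figure D5:**
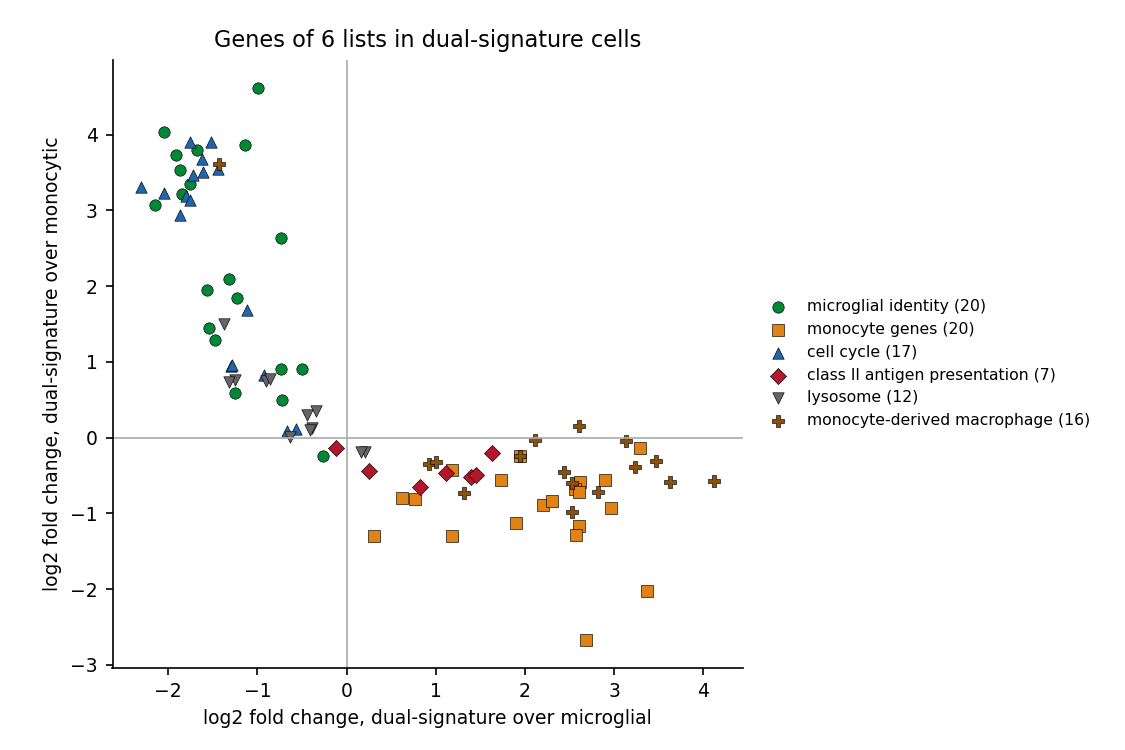
log2 fold change of dual-signature over microglial cells (horizontal axis) against that over monocytic cells (vertical axis) for the tested genes of 6 lists; each point is 1 gene. Microglial identity, cell cycle and lysosome genes lie mostly at the upper left and monocyte, macrophage and class II genes mostly at the lower right, so most sit between the other classes, and none was called higher than both.

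Genes of cell division were below microglial and mostly above monocytic cells. All 17 cell cycle genes were lower than in microglial cells (median log2 -1.61), and 15 were higher than in monocytic cells (median 3.19). Ube2c, a ubiquitin-conjugating enzyme of mitosis, had 22.9 and 24.9 CPM in ROS+ and 23.1 and 32.4 CPM in ROS- dual-signature cells, against 322 and 224 CPM in ROS+ and 56.0 and 112 CPM in ROS- microglial cells. Monocytic cells had 1.72 to 4.84 CPM of Ube2c. Birc5 and Ccnb2, which act in chromosome segregation and entry into mitosis, had log2 fold changes over monocytic cells of 3.67 ± 0.38 and 3.91 ± 0.40. The summed list stood at 14.3 and 11.2 UMIs per barcode in ROS+ and 13.8 and 14.5 in ROS- dual-signature cells, and at 38.5 and 16.4 in ROS+ and 8.49 and 10.1 in ROS- microglial cells, where the ROS+ values rest on 26 and 15 cells.

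Most lysosome genes were lower than in microglial cells, and complement and clearance genes were mixed. Of 12 lysosome genes 9 were lower than in microglial and 5 higher than in monocytic cells, among them Lgmn, the protease legumain (log2 -1.37 ± 0.17 and 1.495 ± 0.17), and Ctsd, the protease cathepsin D (-0.91 ± 0.20 and 0.75 ± 0.19). C1qa, a chain of the complement starter C1q, had 2664 and 2279 CPM in ROS+ and 5903 and 3569.6 CPM in ROS- dual-signature cells. Against it, C1qa had 10486 and 5959 CPM in ROS+ and 12070.1 and 9197 CPM in ROS- microglial cells and 417 to 1560.5 CPM in monocytic cells. Complement genes were divided: 4 of 9 were lower than in microglial cells and 3 higher, these being C3, Cfb and Cfp. Of 9 genes for clearing dead cells, 5 were lower than in microglial cells and 1, the receptor Cd300lf, higher, and 6 were higher than in monocytic cells. Among the 5 were Gas6 (log2 -1.51 ± 0.28 and 4.23 ± 0.38) and Pros1 (-1.59 ± 0.22 and 1.88 ± 0.22), both bridging ligands, and their receptor Mertk (-0.75 ± 0.20 and 1.80 ± 0.18).

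Most antigen presentation, inflammatory and macrophage genes were higher than in microglial cells. Of 7 class II genes 5 were higher than in microglial cells (median log2 1.12) and 5 lower than in monocytic cells (median -0.47). H2-Ab1, a class II chain, had 10165 and 4774 CPM in ROS+ and 8873 and 7005 CPM in ROS- dual-signature cells, against 3702 and 1416 CPM in ROS+ and 4356 and 2249.8 CPM in ROS- microglial cells. In monocytic cells H2-Ab1 had 12145 and 5947 CPM in ROS+ and 14313 and 11621 CPM in ROS- libraries. Of 16 genes of monocyte-derived macrophages 15 were higher than in microglial cells (median 2.52), and 8 lower than in monocytic cells (median -0.37). Arg1, which uses up arginine, had 1823 and 2170.3 CPM in ROS+ and 619.5 and 1854 CPM in ROS- dual-signature cells, against 64.0 to 150.5 CPM in microglial and 824 to 2673 CPM in monocytic cells. Arg1 was 3.47 ± 0.20 above microglial cells in log2 and not called against monocytic cells (-0.31 ± 0.16). Of 10 inflammatory genes 6 were higher than in microglial and lower than in monocytic cells, among them Il1rn, the antagonist of the interleukin-1 receptor, and Nos2, which makes nitric oxide (log2 3.62 ± 0.20 and -0.59 ± 0.11). Against this, the cytokines Tnf (-0.68 ± 0.17) and Il18 (-0.93 ± 0.21) were lower than in microglial cells, and Il12b was higher than in monocytic cells (2.91 ± 0.42).

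Some groups were mixed. Of 20 genes of disease-associated microglia, 4 were higher (Apoe, Clec7a, Ccl6 and Fabp5) and 8 lower than in microglial cells, and 9 were higher and 1 lower than in monocytic cells. Fabp5, a fatty acid carrier, had log2 fold changes of 3.04 ± 0.23 over microglial and -0.03 ± 0.17 over monocytic cells, so it lay at the monocytic level. Timp2, an inhibitor of matrix proteases, and Ch25h, which makes an oxysterol, were below microglial (-1.23 ± 0.19 and -1.23 ± 0.21) and above monocytic cells (2.28 ± 0.19 and 2.78 ± 0.23). Of 14 chemokines 6 were higher and 5 lower than in microglial cells, and 6 higher and 4 lower than in monocytic cells. Ccl12, which attracts monocytes, had 297 and 520.3 CPM in ROS+ and 683 and 572 CPM in ROS- dual-signature cells. Ccl12 stood at 1105 to 1791 CPM in microglial and 35.1 to 71.0 CPM in monocytic cells, while Ccl5, which attracts T cells, was 2.11 ± 0.15 above microglial cells in log2.

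Of 15 lipid genes 7 were higher and 2 lower than in microglial cells, and 3 were higher and 2 lower than in monocytic cells, with Apoc2, an apolipoprotein, at log2 2.59 ± 0.16 and -0.11 ± 0.13. Of 6 subunits of NADPH oxidase, the enzyme that makes superoxide, 3 were higher than in microglial cells and 2 lower than in monocytic cells. Cybb, its catalytic subunit, had 972 and 676 CPM in ROS+ and 679 and 622 CPM in ROS- dual-signature cells, against 122 to 315 CPM in microglial and 778 to 1008 CPM in monocytic cells. Of 12 interferon response genes 1 was higher and 3 lower than in microglial cells, and 7 were lower than in monocytic cells. Of 11 immediate-early and heat shock genes 5 were higher and 3 lower than in microglial cells, and 1 was higher and 5 lower than in monocytic cells.

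How far between the classes the cells lay was read from genes at least 4-fold apart between microglial and monocytic cells. For 91 genes higher in microglial cells, dual-signature cells lay a median 14.8% and 34.1% of the way up from the monocytic to the microglial level in ROS+ libraries and 43.4% and 36.5% in ROS- libraries. For 256 genes higher in monocytic cells, they lay 27.3% and 43.3% of the way down to the microglial level in ROS+ and 51.7% and 50.1% in ROS- libraries. ROS+ replicate 1, the library with the deepest barcodes and the lowest median M, lay nearest to monocytic cells. Between 97.8% and 100% of the first set and between 89.8% and 99.6% of the second lay inside the range of the other classes in each library. The genes were chosen for a wide gap between classes cut on M and Y. A place inside that gap is therefore largely set by the rule, and these shares only describe the class. In all, 1332 genes (12%) were called higher than one class and lower than the other.

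Few genes were called outside that range. Of 11118 genes 66 (0.594%) were called in the same direction against both classes, 26 (0.234%) higher than in both and 40 (0.36%) lower than in both. Without ROS- replicate 2 there were 8 and 10, and over the libraries left out in turn 8 to 22 and 10 to 18. Among those with an average log2 CPM of at least 5 there were 12 above and 31 below, 10 and 22 of them in every library. Ube2m, which attaches the ubiquitin-like protein NEDD8, had 128 and 106 CPM in ROS+ and 96.7 and 117 CPM in ROS- dual-signature cells, against 49.9 to 96.0 CPM in microglial and 55.1 to 88.2 CPM in monocytic cells. That was 0.86 ± 0.14 and 0.62 ± 0.11 in log2, and the ranges did not overlap. Hnrnpa0, an RNA-binding protein, was 1.00 ± 0.14 and 0.51 ± 0.11 higher, and Drap1, a repressor of transcription, 0.65 ± 0.14 and 0.40 ± 0.11. Without cells with at least 3 cell cycle UMIs, Drap1 was -0.10 over monocytic cells, and Ube2m and Hnrnpa0 were no longer called over them.

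Below both stood Capza2, which caps actin filaments, with 343 and 369 CPM in ROS+ and 382 and 408 CPM in ROS- dual-signature cells. Capza2 had 585 to 616 CPM in microglial and 486 to 608 CPM in monocytic cells, with no overlap (log2 -0.66 ± 0.10 and -0.54 ± 0.10). Eif4a1, an RNA helicase of translation initiation, was lower by a like amount (-0.49 ± 0.10 and -0.52 ± 0.09), but its reads may be shared with the pseudogene Eif4a-ps4, also lower. Arpc4 of the actin-branching complex (-0.44 ± 0.11 and -0.43 ± 0.10) and Klf2, a transcription factor (-0.77 ± 0.17 and -0.48 ± 0.15), were lower too. Of the listed genes none was above both classes, and Ifi204 and Ier2 were below both. In cells with 5000 to 20000 UMIs there were 3 genes above and 1 below both, and without cells with at least 3 cell cycle UMIs there were 4 and 3. Klf2 was not called over monocytic cells without ROS+ replicate 2.

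Dual-signature cells also held transcripts of other cell types, and those of T, dendritic and neutrophil cells moved with the gate. The 10 T and natural killer cell markers summed to 0.841 and 7.35 CPM in ROS+ and 67.7 and 78.9 CPM in ROS- dual-signature cells. A UMI of any of them was found in 2.15% and 3.28% of ROS+ and 25.5% and 14.9% of ROS- dual-signature cells, against 1.20% and 0.953% of ROS+ and 11.5% and 5.86% of ROS- monocytic cells, whose barcodes are shallower. In ROS+ replicate 1, 9 of the 10 markers were at 0, Cd3e, Cd3d, Cd2 and Nkg7 among them. The 8 neutrophil markers summed to 204 and 397 CPM in ROS+ and 52.4 and 122 CPM in ROS- dual-signature cells, with Ngp, Camp and Retnlg at 0 in the ROS- libraries, against 807 and 1673 CPM in ROS+ and 92.7 and 167 CPM in ROS- monocytic cells. The dendritic cell markers summed to 7.78 and 19.9 CPM in ROS+ and 58.2 and 81.5 CPM in ROS- dual-signature cells. Of the 6 B cell markers, Cd79a, Ms4a1 and Pax5 were at 0 in 3 of 4 libraries. Ighm, another of them, was lower than in microglial and higher than in monocytic cells. The B cell list also summed to 195 and 158 CPM in microglial cells of the healthy libraries. Border macrophage, endothelial, astrocyte and oligodendrocyte lists each summed to between 58.2 and 122 CPM in dual-signature cells. Against microglial cells 2 of 8 tested T and natural killer markers, 2 of 5 neutrophil, 1 of 5 dendritic, 2 of 3 border macrophage, 2 of 3 endothelial and 3 of 4 astrocyte markers were higher, and 2 of 2 B cell and 1 of 4 astrocyte markers lower. Against monocytic cells 2 of 8 T and natural killer, 5 of 5 neutrophil, 3 of 5 dendritic, 1 of 3 endothelial and 1 of 4 astrocyte markers were lower, and 1 of 2 B cell, 1 of 4 astrocyte and 2 of 4 oligodendrocyte markers higher. Over all genes 14.4% were higher and 11.2% lower than in microglial cells, and 12.8% higher and 12.4% lower than in monocytic cells. With 2 to 8 tested members per list, these counts are not read further.

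The gate was not part of the rule, so ROS+ and ROS- dual-signature cells could be tested against each other, with 2 libraries each. Of 10581 genes, edgeR's quasi-likelihood test called 2 higher (0.0189%) and 4 lower (0.0378%) in ROS+ cells, 0.0567% in all, while 1083 had an unadjusted p under 0.05 and DESeq2 called 11 and 19. The counts rested on single libraries, with 35 and 21 without ROS+ replicate 1, 123 and 269 without ROS+ replicate 2, 0 and 1 without ROS- replicate 1 and 20 and 57 without ROS- replicate 2. They were 96 and 200 with no low count filter and 149 and 251 with the replicate block. F13a1, the coagulation factor XIII subunit of monocytes, had 149 and 143 CPM in ROS+ and 39.0 and 54.1 CPM in ROS- cells. That is 1.67 ± 0.21 in log2 (adjusted p = 0.0365, edgeR), and without ROS- replicate 1 it was 1.44 with an adjusted p of 0.518. The gates did not overlap for F13a1, as for 4250 of the 10581 genes (40.2%). F13a1 was also higher in ROS+ monocytic cells, at 141 and 154 CPM against 42.9 and 75.1 CPM in ROS- monocytic cells.

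The other 5 genes had almost no counts in 1 gate, so no fold is given. S100a9, a neutrophil and monocyte alarmin, had 69 and 39 UMIs in ROS+ and 1 and 1 in ROS- dual-signature cells. Ccl17, a chemokine of dendritic cells, had 2 and 0 UMIs in ROS+ and 117 and 115 in ROS- cells. Nkg7, a protein of cytotoxic granules, had 0 and 1 UMIs in ROS+ and 98 and 52 in ROS- cells, and Cd3d, a chain of the T cell receptor complex, 0 and 1 in ROS+ and 62 and 39 in ROS- cells. Csf2, the cytokine GM-CSF, was the remaining gene, at 0 CPM in ROS+ and 9.51 and 9.31 CPM in ROS- cells. The marker sums of neutrophils, T and natural killer cells and dendritic cells, given above, moved with the gate in the same direction. S100a9, Nkg7, Cd3d and Ccl17 are themselves members of these lists, so the sums are no separate observation. The part of such cells or their transcripts in these results was not tested.

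No other gene of the lists was called between gates. The median log2 fold change of the 20 microglial identity genes was -0.93 with 0 called, and that of 19 tested monocyte genes was 0.66 with 1 called, beside a median of -0.02 over all genes. The balance of the members moved with this: M was 5.46 and 9.26 per 10000 UMIs in ROS+ and 18.0 and 14.4 in ROS- dual-signature cells, and its part was not tested. Apoe, which carries lipids, had 20156 and 7791 CPM in ROS+ and 10151 and 4745 CPM in ROS- cells, an overlap between gates. Whether the gate difference was another in dual-signature than in monocytic cells was tested with an interaction term over 11130 genes, which called 9 (0.0809%), 2 with a more positive and 7 with a more negative difference in dual-signature cells. F13a1 was not among them (0.31 ± 0.21, adjusted p = 0.960, edgeR).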

How the data were processed

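Droplet single-cell RNA libraries were aligned and counted by the authors with Cell Ranger 2.0.1 against mm10, with Seurat 3 and R 3.4.2 also listed, per the submitters' processing notes. The deposited values are raw UMI counts per gene and barcode, 1 matrix per library. A floor of 200 genes per barcode and a ceiling of 10% mitochondrial UMIs left 9078 of 9079 barcodes. Counts were summed per library and class (at least 10 cells) and fitted with edgeR 4.0.16 in R 4.3.3, by the quasi-likelihood test after TMM scaling and the low count filter filterByExpr (minimum count 10), with a library block for classes and Benjamini-Hochberg adjustment over all genes tested. The 12 rule genes were given no test between classes and stayed in the fits of the gate and of the interaction. DESeq2 1.42.0 was an alternative. Cells were handled with scanpy 1.11.5, and doublets were scored with Scrublet and kept. Intervals are 95% Clopper-Pearson. The fits were also run on simulated counts, whose outcome is not given here and is not used as support for the calls.

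Members and gene lists were chosen with earlier results of these data known. Genes were named as the 4 marking genes, up to 4 called members per list and comparison with the largest fold, up to 10 per direction outside both classes whose average log2 CPM reached 5, and the genes called between gates; Apoe, Csf2, Cd300lf, Tnf, Il18 and genes listed as exceptions were named after their values were seen. Over genes, the replicate 1 minus replicate 2 differences of ROS+ and ROS- dual-signature cells correlated at 0.216. The labels do not say whether same-numbered libraries belong together, so the main fit had no replicate block. A link between them was not excluded, and the counts with that block are given above.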

Additional observations from a re-analysis of the deposited data

Results flagged for a closer look

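For 9 genes the difference between ROS+ and ROS- libraries was another in dual-signature than in monocytic cells, by the interaction term of edgeR's quasi-likelihood test. Values are the log2 gate difference in dual-signature cells minus that in monocytic cells. Ccl2, a chemokine for monocytes, had -1.762 (adjusted p = 0.00531, edgeR), with 193 and 548 CPM in ROS+ and 469 and 577 CPM in ROS- dual-signature cells. In monocytic cells Ccl2 had 148 and 307 CPM in ROS+ and 82.8 and 121 CPM in ROS- libraries, so it was higher in ROS+ there. Pros1, a bridging ligand for dead cells, had -1.565, and C4b, a complement protein, -1.51. The others with a more negative difference in dual-signature cells were Chi3l1 at -3.699, Frmd4a at -1.378, Rnase4 at -1.255 and S100a8 at -1.177. Chi3l1 had only 0.231 and 0.763 CPM in ROS- monocytic cells, so the size of its value is uncertain. Ccnd2, a cyclin, at 1.34 and Ifitm1 at 1.202 had a more positive one. Without ROS+ replicate 1 no gene was called, without ROS+ replicate 2 there was 1, without ROS- replicate 1 there were 4 with a more positive and 30 with a more negative difference, and without ROS- replicate 2 there were 19 and 24. The microglial content M, 5.46 and 9.26 per 10000 UMIs in ROS+ and 18.0 and 14.4 in ROS- dual-signature cells, moved with the gate, and its part was not tested.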

How the results depend on the processing

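Between gates, genes called higher and lower in ROS+ dual-signature cells numbered 2 and 4, against 1 and 0 in the fit of 3 classes without library terms, 11 and 19 with DESeq2 and 96 and 200 with no low count filter. With the replicate block they were 149 and 251, although the labels do not say whether the numbers pair the libraries. With 5000 to 20000 UMIs 0 were lower, with stricter thresholds 2, and without cells with at least 3 cell cycle UMIs 0 were higher and 0 lower; leaving out each library gave 0 to 123 higher and 1 to 269 lower. The interaction, with 2 and 7, gave 17 and 45 with no filter, 0 and 0 at 5000 to 20000 UMIs, 0 and 2 with stricter thresholds and without cycling cells, and 0 to 19 and 0 to 30 over libraries left out.

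Genes higher and lower than in microglial cells numbered 789 and 539 in the ROS+ libraries alone and 1068 and 758 in the ROS- libraries alone. They numbered 661 and 457 in cells with under 3 cell cycle UMIs, and 774 were lower at 5000 to 20000 UMIs. Leaving out libraries gave 1123 to 1487 and 700 to 1067. Against monocytic cells they were 926 and 478 without the library block and 473 and 378 in the ROS+ libraries. They were 378 and 387 in cells with under 3 cell cycle UMIs, with 868 lower at 5000 to 20000 UMIs. Over libraries left out they were 903 to 1519 and 703 to 1332. Above and below both classes stood 13 above with DESeq2, 2 and 5 without the block and 3 and 1 at 5000 to 20000 UMIs. There were 3 and 9 in ROS+, 6 and 8 in ROS- libraries and 4 and 3 in cells with under 3 cell cycle UMIs. Leaving out libraries in turn gave 8 to 22 and 10 to 18. The fits limited to 1 gate were chosen after seeing the data.

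Directions turned for Gfap over microglial cells in the ROS+ libraries (-0.24). They also turned for Cxcl13 over microglial cells without ROS- replicate 1 (0.088, with -1.08 at the other end of the range over libraries left out). In cells with under 3 cell cycle UMIs they turned for Ppp1r14b (-0.15) and Irak1 (-0.39) over microglial and Irak1 (-0.44) and Drap1 (-0.10) over monocytic cells. The cause was not tested. A UMI of the 17 cell cycle genes was found in 95.1% to 98.9% of dual-signature and 74.9% to 92.3% of monocytic cells per library. The limit is on raw UMIs, so it is no call of dividing cells. The share difference between gates was -10.6 to -2.67 points over libraries left out. DESeq2 was not run for the interaction. The ROS+ microglial sums rest on 26 and 15 cells, of which too few had under 3 cell cycle UMIs, and each gate had 2 libraries.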
